A study of Mus musculus with 12 samples.

Results

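A set of 10 genes is described, most of them from families that restrain MAP kinase signalling or shorten the life of mRNAs. These are the MAP kinase phosphatase genes Dusp1, Dusp4, Dusp5 and Dusp6, and the Sprouty genes Spry2 and Spry4. Zfp36, Zfp36l1 and Zfp36l2 encode AU-rich element binding proteins. The immediate-early gene Ier3, whose product is a substrate of ERK, completes the set. The 10 genes were chosen by name, with earlier results of these data known. Every probe whose symbol in the deposited table equals one of these names was taken. This gave 15 of 25697 probes, for 9 of the 10 genes among 18138 symbols. Dusp5 had no probe in the table used here. Dusp1, Dusp4, Dusp6, Zfp36, Zfp36l1 and Ier3 had a probe above background on all 12 arrays and were tested, which makes 6 tested genes. Spry2, Spry4 and Zfp36l2 were at background on nearly every array and were not tested.

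Expression was measured on 12 Illumina beadchips hybridized with RNA of NMuMG cells, an established epithelial cell line from mouse mammary gland that is widely used to study responses to TGF-beta. The cells were seeded at 5000 per well on Matrigel, an extract of basement membrane, and formed spheroids over 6 days, with a change of medium on day 4. All groups then spent 4 h in serum-free medium. One group had no ligand, another had GDF11 (250 ng/mL) and the remaining group TGFB1 (50 ng/mL), with 4 replicates each, and every replicate joined RNA of 2 wells. Both ligands are secreted members of the TGF-beta family, and since they were given at different doses, differences between them are differences between these 2 treatments.

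MAP kinases such as ERK, JNK and p38 are switched on by phosphorylation, and dual-specificity phosphatases of the DUSP family remove these phosphates. DUSP1 and DUSP4 act in the nucleus, DUSP1 mainly on p38 and JNK, whereas DUSP6 is a cytoplasmic phosphatase that prefers ERK. Sprouty proteins dampen signalling from receptor tyrosine kinases to RAS, upstream of the kinases. ZFP36, also called tristetraprolin, and its relatives ZFP36L1 and ZFP36L2 bind AU-rich elements in mRNAs and recruit the CCR4-NOT deadenylase, which removes the poly(A) tail. IER3 is an early response protein and a substrate of ERK. Many of these genes are themselves induced within an hour or so of growth factor or stress signals, which is why they are counted as feedback regulators. In epithelial cells TGF-beta family ligands signal chiefly through SMAD2 and SMAD3 and can also engage MAP kinases.

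The promoter of Ier3, which was higher with both ligands, is shown beside those of Dusp1, Zfp36 and Dusp6, which were lower with TGFB1, so that genes of opposite direction can be read together. They were picked with the values known. Each is the stretch of 200 bases before the transcription start in RefSeq (GRCm38.p6), 5′ to 3′ on the gene's strand. The stretches are chr17:35821513-35821712, plus strand, for Ier3, chr17:26508473-26508672, minus strand, for Dusp1, chr7:28379229-28379428, minus strand, for Zfp36, and chr10:99263031-99263230, plus strand, for Dusp6. Capitals mark every match to a searched motif.
Ier3: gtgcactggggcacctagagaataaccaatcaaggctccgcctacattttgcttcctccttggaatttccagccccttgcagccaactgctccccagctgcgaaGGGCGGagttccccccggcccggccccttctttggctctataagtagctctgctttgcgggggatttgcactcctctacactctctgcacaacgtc
Dusp1: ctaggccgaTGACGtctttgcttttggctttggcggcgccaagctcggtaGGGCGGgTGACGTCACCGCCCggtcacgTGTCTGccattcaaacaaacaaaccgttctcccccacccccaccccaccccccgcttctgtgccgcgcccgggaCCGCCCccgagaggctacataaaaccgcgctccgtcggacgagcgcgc
Zfp36: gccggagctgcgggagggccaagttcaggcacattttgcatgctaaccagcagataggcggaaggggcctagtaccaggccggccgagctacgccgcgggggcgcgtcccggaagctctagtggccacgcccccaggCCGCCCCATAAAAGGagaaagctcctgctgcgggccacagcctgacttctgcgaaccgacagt
Dusp6: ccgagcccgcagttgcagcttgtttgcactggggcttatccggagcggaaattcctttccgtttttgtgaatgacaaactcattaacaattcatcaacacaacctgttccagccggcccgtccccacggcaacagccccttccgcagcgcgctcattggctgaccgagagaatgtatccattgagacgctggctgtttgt

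The motifs searched, on both strands and over 250 bases before to 50 after the start, were the palindromic SMAD site GTCTAGAC, the SMAD repeat CAGACA, the AP-1 site TGANTCA, the cAMP response element TGACGTCA and its core TGACG, which overlaps it, the CArG box bound by SRF, the ETS site GGAAGT and the Sp1 site GGGCGG. Counted back from the start, the Dusp1 promoter held a full cAMP response element at −143 to −136, a feature of 1.79% of the 32851 promoters in the table, flanked by Sp1 sites, and a SMAD repeat on the other strand at −122 to −117, a feature of 21.0%. The Zfp36 promoter held a CArG box at −58 to −49, a feature of 1.63% of promoters, overlapping an Sp1 site by its first base. The Ier3 promoter held an Sp1 site at −96 to −91, as 35.7% of promoters do somewhere in the window, and in the Dusp6 promoter none of the searched letters occurred. The promoters of Dusp4, Spry4 and Zfp36l2 were not searched. Among the 7 genes of the set whose promoter was searched, the palindromic SMAD site occurred in none, against 0.213% of all promoters. The AP-1 site occurred in Zfp36l1 alone, against 7.81%. The ETS site was found in 1 of the 7, Dusp5, against 23.8%, and the core TGACG in 2, Dusp1 and Dusp5, against 20.8%. These matches describe the letters in the window and say nothing about binding.

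The 12 arrays differed in raw brightness in a way that partly followed the groups. Mean raw intensity lay between 149 and 165 scanner units on serum-free arrays 1, 2 and 4 and GDF11 array 1, called dim here, and between 255 and 310 on the other 8, called bright. Between 41.2% and 49.6% of probes per array were above background. All levels given are log2 intensities after background correction and quantile normalization, which sets every array to one distribution. A gene was tested if it had a probe with a detection p-value under 0.05 on at least 4 arrays, and its brightest such probe stands for it. A gene counts as called at an adjusted p under 0.05. With treatment accounted for in the fit, 4494 of the 9134 tested genes (49.2%) differed between bright and dim arrays by limma, 22.7% higher and 26.5% lower on bright arrays. Zfp36l1 (−0.53 ± 0.10 on the log2 scale, SE, limma adjusted p = 0.000569) and Dusp4 (−0.44 ± 0.09, adjusted p = 0.00174) were among the genes lower on bright arrays. Ier3 (−0.13), Dusp1 (−0.03), Dusp6 (0.13) and Zfp36 (−0.22) did not pass (limma adjusted p 0.223 to 0.881). Changes are therefore also given from a fit that adds the dim or bright state of each array, called the brightness term, and from the 8 bright arrays alone. These hold 1 serum-free array, so p-values against serum-free medium there take its spread from the other groups. No TGFB1 array was dim, so for TGFB1 against serum-free medium brightness and ligand can be told apart only through serum-free array 3 and the GDF11 arrays. Luminal epithelial markers Krt8, Krt18, Krt19 and Cdh1 were above background on all 12 arrays, whereas Esr1 and Gata3 were on none. The summed raw intensity of the 6 luminal markers with a probe ran from 4979 to 26436 in serum-free medium, 6640 to 30413 with GDF11 and 28553 to 31898 with TGFB1. After normalization the 4 detected ones had a median change of 0.72 with GDF11, where none passed by limma, and 0.99 with TGFB1, where Krt8, Krt18 and Cdh1 were higher and Krt19 lower. With the brightness in the fit the medians were 0.25 and 0.28, and Krt19 alone passed, lower with TGFB1. Their part in the results was not tested. Of the basal markers Mylk was above background on all 12 arrays and Krt5, Trp63 and Cdh3 on none. The 3 basal markers tested had a median change of 0.50 with GDF11, where none passed by limma. With TGFB1 it was 0.46, and 1 was higher and 1 lower. With the brightness in the fit the medians were 0.82 and 0.93, and 1 was higher with each ligand. The part of the basal markers in the results was not tested either. No fibroblast, endothelial, leukocyte or adipocyte marker was above background on all arrays, and Col1a2, Col3a1, Dcn, Lum, Cdh5, Ptprc, Itgam, Cd3e, Plin1, Fabp4 and Lpl were on none. In RNA from whole spheroids, fewer cells that express a gene and less RNA per cell cannot be told apart.

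The set did not move as one. With GDF11, Ier3 rose and no other tested gene of the set passed. With TGFB1, Ier3 and Dusp4 rose while Dusp1, Zfp36, Dusp6 and Zfp36l1 fell. The falls did not all hold in other settings: none passed as a fall under median scaling, Zfp36l1 did not pass with array brightness in the fit, and Dusp6 did not pass with averaged probes. Median scaling moved the median of all genes to 0.60 for TGFB1 against serum-free medium. There those 4 lay below that median, Dusp1 by −0.61, Zfp36 by −0.50, Zfp36l1 by −0.46 and Dusp6 by −0.19. Before the median was taken off, their changes were −0.0035, 0.10, 0.14 and 0.41 in the same order. Ier3 and Dusp4 then lay above the median, by 1.18 and 0.83.

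Against serum-free medium, GDF11 gave 1 call among the 6 tested genes, Ier3, where limma called 9.93% of all tested genes (4.78% higher, 5.15% lower). With the brightness term 2 genes were called, both higher, Ier3 and Dusp4, beside 10.4% of all genes (5.62% higher). On bright arrays alone the same 2 were called, beside 6.16%. The levels of the 2 groups were fully separate for 3 of the 6, Ier3, Dusp4 and Dusp1, where 10.7% of all genes were. An unadjusted p under 0.05 was reached by 4 of the 6 and by 2690 of all genes.

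TGFB1 against serum-free medium gave calls for each of the 6 tested genes, 2 higher and 4 lower, where 34.4% of all tested genes were called (15.7% higher, 18.7% lower). With the brightness term 5 of the 6 were called, 2 higher and 3 lower, beside 15.9% of all genes (7.93% in each direction), and Zfp36l1 was not. On bright arrays alone the same 5 were called, beside 17.1%. The 2 groups were fully separate for each of the 6, against 33.5% of all genes. The 6 genes are those with a signal above background, not the whole set of 10. The set was chosen with earlier results of these data known. Counts of its calls and separations in any comparison are therefore no independent support.

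**Figure D1:**
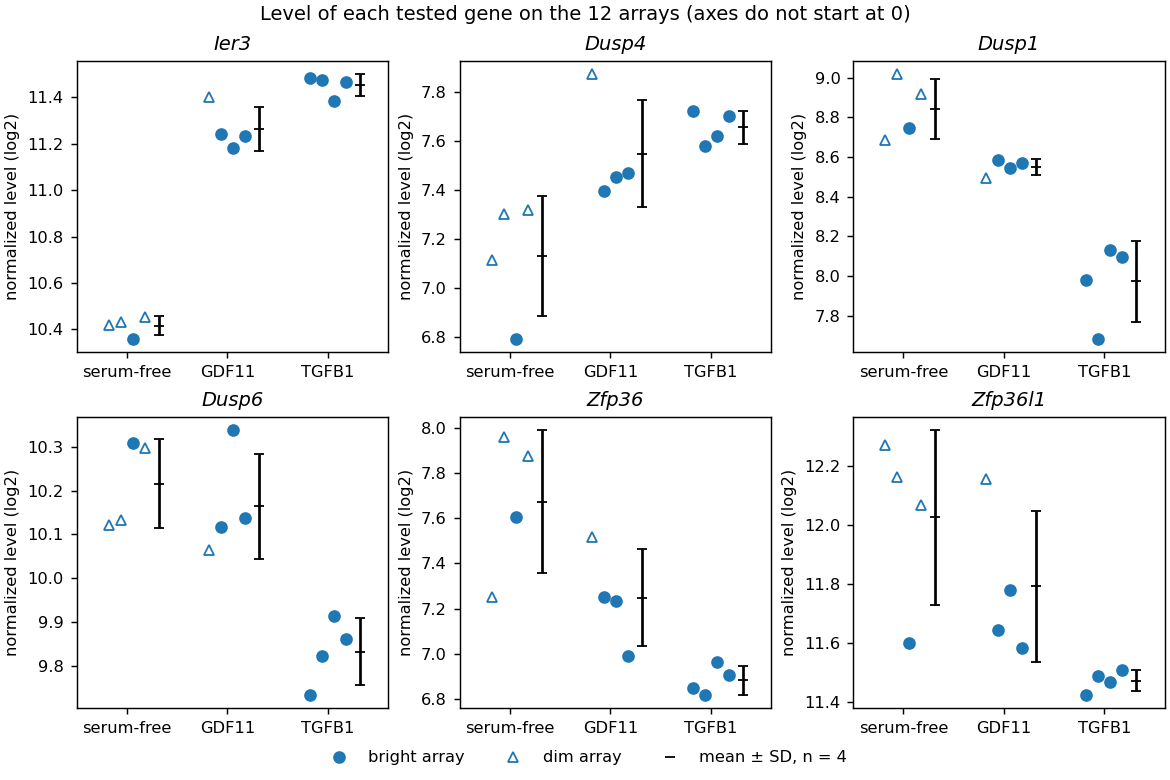
Normalized log2 level of the 6 tested genes on each array (vertical axes, which do not start at 0), by group, with filled circles for bright arrays, open triangles for dim arrays and bars for mean ± SD of 4 arrays. Ier3 separates serum-free arrays (up to 10.46) from all arrays with a ligand (from 11.18), and Dusp1 steps down from serum-free medium over GDF11 to TGFB1, an order that median scaling does not keep for GDF11, whose Dusp1 change is 0.18 there.

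**Figure D2:**
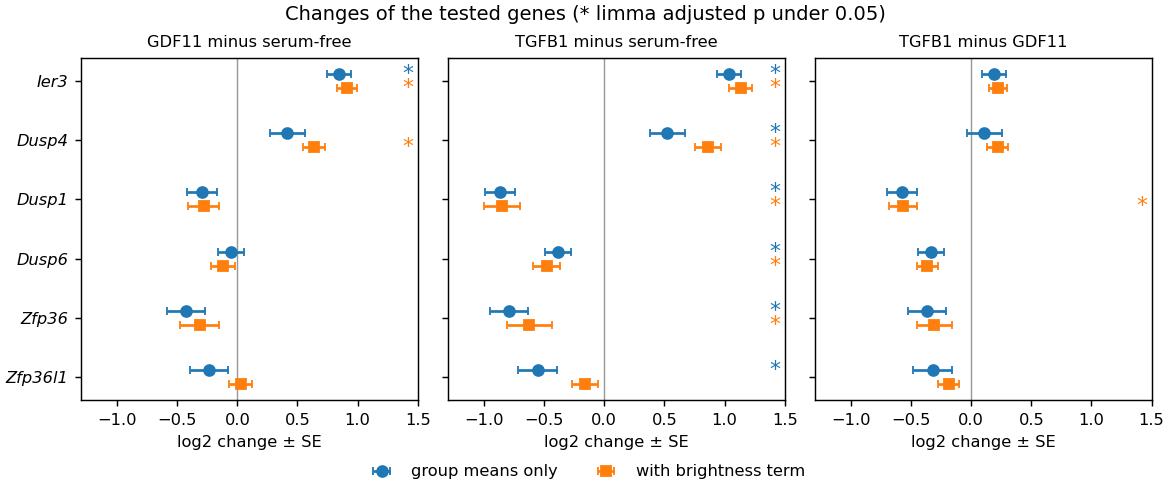
Log2 change ± SE of the tested genes in the 3 comparisons, without (circles) and with (squares) the brightness term, with an asterisk for a limma adjusted p under 0.05. The term takes the TGFB1 change of Zfp36l1 from −0.55 to −0.16 and the GDF11 change of Dusp4 from 0.42 to 0.64, and under median scaling Dusp6, Zfp36 and Zfp36l1 stand above 0 in the middle panel.

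Ier3, whose product is an early response protein, had normalized levels of 10.42, 10.43, 10.36 and 10.46 on serum-free arrays 1 to 4. With GDF11 they were 11.40, 11.24, 11.18 and 11.23, and with TGFB1 11.48, 11.47, 11.38 and 11.47. Every array with a ligand lay above every serum-free array, on dim and on bright arrays alike, and the GDF11 and TGFB1 arrays overlapped through GDF11 array 1. Ier3 rose 1.80-fold with GDF11 (0.85 ± 0.10 on the log2 scale, SE over 4 arrays a group, limma adjusted p = 0.000142) and 2.05-fold with TGFB1 (1.04 ± 0.10, adjusted p = 7.48e-06). The brightness term left these changes at 0.91 and 1.13, and bright arrays alone at 0.86 and 1.09, with an adjusted p under the threshold each time. On dim arrays alone, 3 serum-free against 1 GDF11, the change was 0.97, which did not pass (limma adjusted p = 0.135). The 2 ligand changes rest on the same 4 serum-free arrays.

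The gene of the set with the smallest adjusted p in both comparisons with serum-free medium was Ier3, and the tested genes most like it over the 12 arrays were Gadd45a (Pearson r = 0.991), Pdgfb (0.990) and Cldn4 (0.989). GADD45A is a stress-induced protein of growth arrest, PDGFB a growth factor and CLDN4 a tight junction protein. These correlations describe 12 arrays that share 3 treatments and are given without a test.

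Dusp4, a nuclear phosphatase that ERK signalling itself induces, was measured at 7.11, 7.30, 6.79 and 7.32 in serum-free medium. Its levels were 7.87, 7.40, 7.46 and 7.47 with GDF11 and 7.73, 7.58, 7.62 and 7.70 with TGFB1. All arrays with a ligand lay above the serum-free arrays, and the spread within the serum-free and GDF11 groups followed brightness: the only bright serum-free array was the lowest of its group and the only dim GDF11 array the highest. Among bright arrays the order was serum-free (6.79), GDF11 (7.40 to 7.47) and TGFB1 (7.58 to 7.73), with no overlap.

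Dusp4 rose 1.44-fold with TGFB1 (0.53 ± 0.145, limma adjusted p = 0.0154) and by 0.86 ± 0.11 with the brightness term (adjusted p = 8.31e-05). With GDF11 the change was 0.42 ± 0.145 and did not pass (limma adjusted p = 0.0851), whereas it passed with the brightness term (0.64 ± 0.09, adjusted p = 0.000571) and on bright arrays alone (0.65 ± 0.13, adjusted p = 0.007). A second Dusp4 probe gave 0.62 ± 0.17 for TGFB1 (limma adjusted p = 0.0171) and 0.34 ± 0.17 for GDF11 (adjusted p = 0.215). Another was above background on serum-free array 2 alone and was not used.

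Dusp1 encodes the founding MAP kinase phosphatase, an immediate-early gene. Its levels were 8.69, 9.02, 8.75 and 8.92 in serum-free medium, 8.49, 8.58, 8.55 and 8.57 with GDF11, and 7.98, 7.68, 8.13 and 8.10 with TGFB1. The 3 groups did not overlap: every serum-free array was above every GDF11 array and every GDF11 array above every TGFB1 array. Dusp1 fell with TGFB1 relative to the serum-free arrays, to a level 1.83-fold lower (−0.87 ± 0.13, limma adjusted p = 0.000247), and by −0.85 with the brightness term (adjusted p = 0.00124). Bright arrays alone gave −0.77 (limma adjusted p = 0.00417). With GDF11 the change was −0.29 ± 0.13 and did not pass (limma adjusted p = 0.143), nor did it with the term (−0.28, adjusted p = 0.209), and bright arrays alone gave −0.18 (adjusted p = 0.599). The Dusp1 probe shifted by −0.03 ± 0.13 between dim and bright arrays, the smallest shift among the 6 tested genes.

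Dusp6, the ERK phosphatase of the cytoplasm, had levels of 10.12, 10.13, 10.31 and 10.30 in serum-free medium and 10.06, 10.12, 10.34 and 10.14 with GDF11. With TGFB1 they were 9.73, 9.82, 9.91 and 9.86. The serum-free and GDF11 arrays overlapped over most of their range, and every TGFB1 array was below both. Dusp6 was 1.30-fold lower with TGFB1 (−0.38 ± 0.11, limma adjusted p = 0.0178), and the value was −0.48 with the brightness term (adjusted p = 0.0106) and on bright arrays alone (adjusted p = 0.0268). The change with GDF11 was −0.05 ± 0.11 with a 95% interval of −0.29 to 0.18 (limma adjusted p = 0.772). It was −0.12 with the term (adjusted p = 0.526) and −0.11 on bright arrays alone (adjusted p = 0.714).

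The 3 Dusp6 probes did not give one answer for TGFB1. The probe used for the gene, ILMN_2925711, fell by 0.38. ILMN_2701321 gave −0.56 ± 0.14 (limma adjusted p = 0.0115) at raw signals of 86.2 to 119 scanner units. ILMN_1248537 gave 0.39 ± 0.29 (limma adjusted p = 0.304) and shifted with brightness more than any other probe of the set, by 1.09 ± 0.14 (adjusted p = 5.93e-05). Its levels were 6.85 to 7.22 on the 4 dim arrays and 7.58 to 8.36 on the 8 bright ones. With the brightness term it gave −0.42 (limma adjusted p = 0.105) and ILMN_2701321 −0.32 (adjusted p = 0.183), so all 3 probes then lay below 0 and ILMN_2925711 alone passed. When the probes of each gene were averaged instead, the TGFB1 change of Dusp6 was −0.18 and did not pass (limma adjusted p = 0.252). Without TGFB1 array 1 the Dusp6 call was lost as well (−0.35, adjusted p = 0.0561), and so it was with the term and the replicate number as a block (−0.37, adjusted p = 0.103).

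**Figure D3:**
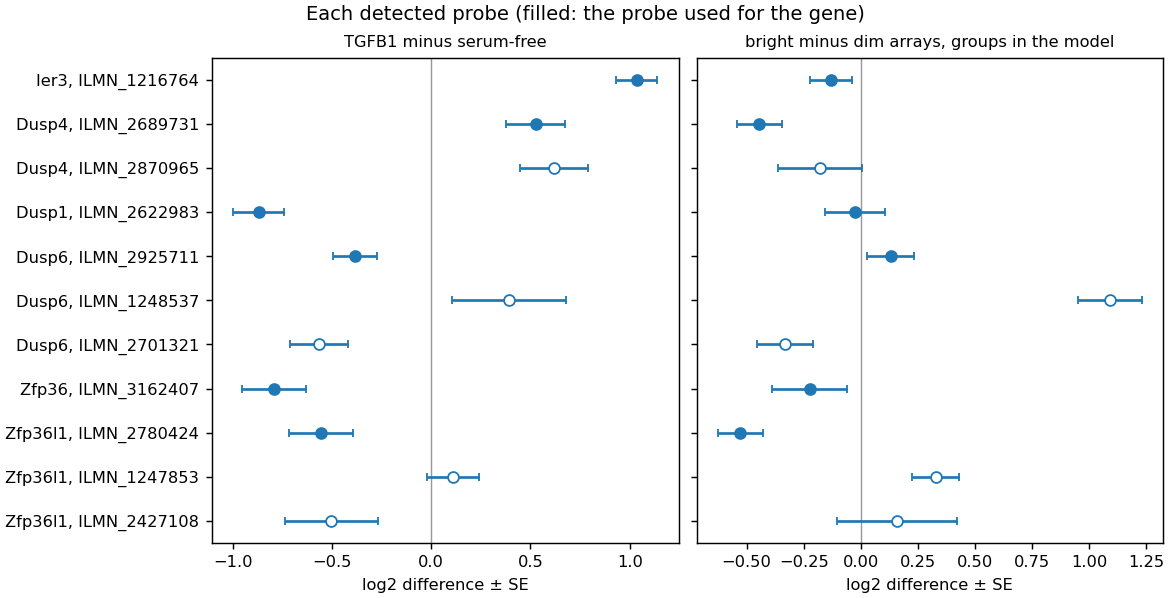
Log2 difference ± SE for each probe above background of the tested genes, for TGFB1 minus serum-free (left) and for bright minus dim arrays with the groups in the model (right), with filled points for the probe used for the gene. The probe names are those of the array, and the Dusp6 probe furthest to the right in the right panel (1.09) is also the one above 0 on the left (0.39).

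Zfp36 encodes tristetraprolin. Its levels were 7.25, 7.96, 7.61 and 7.88 in serum-free medium, 7.52, 7.25, 7.23 and 6.99 with GDF11, and 6.85, 6.82, 6.96 and 6.91 with TGFB1. Serum-free array 1 was the lowest of its group and lay inside the range of GDF11, while all TGFB1 arrays lay below both other groups and close together. With TGFB1, Zfp36 was 1.73-fold lower (−0.79 ± 0.16, limma adjusted p = 0.00273). It was lower by a log2 change of −0.62 with the brightness term (adjusted p = 0.0356) and −0.72 on bright arrays alone (adjusted p = 0.00232). In the model with the term, 8 of the 12 fits that left out 1 array no longer called it (limma adjusted p 0.000815 to 0.335 over the 12), nor did the fit with the term and the replicate number as a block (−0.43, adjusted p = 0.241).

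With GDF11 the Zfp36 change was −0.43 ± 0.16 and did not pass (limma adjusted p = 0.104), nor with the brightness term (−0.31, adjusted p = 0.264), and the bright arrays gave −0.45 (adjusted p = 0.0845). Single arrays decided this: Zfp36 passed without serum-free array 1 (−0.57, limma adjusted p = 0.0351) and without GDF11 array 1 (−0.51, adjusted p = 0.0226).

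Zfp36l1, the second member of the family that was measured, had levels of 12.27, 12.16, 11.60 and 12.07 in serum-free medium. They were 12.16, 11.65, 11.78 and 11.59 with GDF11 and 11.43, 11.49, 11.47 and 11.51 with TGFB1. The 4 dim arrays were the 4 highest in all, and among the 8 bright arrays the levels spanned only 11.43 to 11.78. Zfp36l1 was 1.47-fold lower with TGFB1 (−0.55 ± 0.16, limma adjusted p = 0.0191), but the change was −0.16 ± 0.11 with the brightness term (adjusted p = 0.39) and −0.13 ± 0.13 on bright arrays alone (adjusted p = 0.559). Without serum-free array 1 or 2 the call was lost even with no term (limma adjusted p = 0.0603 and 0.0547). The other probes of the gene, ILMN_1247853 and ILMN_2427108, gave 0.11 (adjusted p = 0.545) and −0.50 (adjusted p = 0.113) for TGFB1 by limma. With GDF11 the change was −0.23 ± 0.16 (limma adjusted p = 0.331), and 0.03 with the term.

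Zfp36l2 was not above background on any array, with raw signals of 77.2 to 94.98 scanner units. Spry2 was above background on GDF11 array 4 and TGFB1 array 3 (detection p-values of 0.00501 and 0.00251), and its raw signal ran from 78.2 to 105.8. Spry4 was above background on TGFB1 array 3 alone (detection p-value of 0.0439), at 80.3 to 97.7. At such signals a change could be missed, so no direction is given for these 3 genes. When genes above background on at least 1 array were let into the fit, Spry2 changed by 0.18 with GDF11 and 0.21 with TGFB1 and Spry4 by −0.03 with each, and neither passed (limma adjusted p 0.295 to 0.854 over these 4 values). Zfp36l2 entered none of the fits.

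TGFB1 was compared with GDF11 directly to ask whether the treatments differ. None of the 6 tested genes was called, where limma called 0.832% of all tested genes, and 3 of the 6 had an unadjusted p under 0.05, with 808 of all genes. The arrays were fully separate for 4 of the 6, Dusp1, Dusp6, Zfp36 and Zfp36l1, each lower with TGFB1, against 10.5% of all genes. Dusp1 stood nearest to the threshold at −0.57 ± 0.13 (95% interval −0.85 to −0.30, limma adjusted p = 0.0547), and its 4 TGFB1 arrays (7.68 to 8.13) were all below its 4 GDF11 arrays (8.49 to 8.58). With the brightness term Dusp1 was called (−0.57 ± 0.12, adjusted p = 0.0181), 1 call among the 6 beside 2.51% of all genes (1.23% lower). On bright arrays, 4 TGFB1 against 3 GDF11, Dusp1 (−0.59 ± 0.11, limma adjusted p = 0.0059) and Dusp6 (−0.37 ± 0.09, adjusted p = 0.0333) were called, beside 5.87% of all genes. With median scaling the median of all genes lay at 0.27 and Dusp1 at −0.18 (limma adjusted p = 0.714).

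The other differences between the ligands did not pass on all arrays, and their 95% intervals show what sizes the arrays allow. They were −0.57 to −0.10 for Dusp6 (−0.33, limma adjusted p = 0.305), −0.71 to −0.02 for Zfp36 (−0.37, adjusted p = 0.52) and −0.66 to 0.02 for Zfp36l1 (−0.32, adjusted p = 0.626). For the genes higher with the ligands they were −0.03 to 0.40 for Ier3 (0.19, adjusted p = 0.65) and −0.20 to 0.42 for Dusp4 (0.11, adjusted p = 0.844). Adding the brightness term put the differences at −0.36 for Dusp6 (limma adjusted p = 0.0531), −0.31 for Zfp36, −0.19 for Zfp36l1 and 0.22 for both Ier3 and Dusp4 (adjusted p 0.186 to 0.373 for these 4). Over the 12 arrays, the tested genes most like Dusp1, the gene of the set with the smallest adjusted p here, were Lmo4 (Pearson r = 0.957), a LIM-only transcription cofactor, Ifngr1 (0.938), an interferon gamma receptor chain, and Oxld1 (0.936), again as a description of 12 arrays in 3 treatments.

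Genes around the set were read from lists that leave out the set itself. They are described by counts of calls and by the median log2 change, beside a median over all genes of −0.02 for GDF11, −0.01 for TGFB1 and −0.01 between the ligands. Of all tested genes, limma called 9.93% for GDF11, 34.4% for TGFB1 and 0.832% between the ligands. With the brightness term these shares were 10.4%, 15.9% and 2.51%. An unadjusted limma p under 0.05 was reached by 2690 of the 9134 tested genes for GDF11, 4263 for TGFB1 and 808 between the ligands. A count near the share of its own kind, adjusted or unadjusted, does not set a list apart from all genes. Of the 5 other MAP kinase phosphatase genes tested, 1 rose with each ligand and none fell by limma (medians 0.19 and 0.11; at an unadjusted p under 0.05, none was lower with GDF11 and 1 with TGFB1). The gene that rose was Dusp2, which encodes a nuclear phosphatase. It was above background on no serum-free array and on all 8 arrays with a ligand, so it entered the test only through the groups in which it was high, and its p-values are no independent support. Against the lowest detected signal of those arrays it was higher by at least 2.47-fold with GDF11 (limma adjusted p = 3.27e-05) and at least 2.92-fold with TGFB1 (adjusted p = 3.25e-06). A second Dusp2 probe gave 0.46 (limma adjusted p = 0.0947) and 0.70 (adjusted p = 0.00732) on the log2 scale.

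Of 10 other Sprouty, Spred and receptor feedback inhibitor genes, none passed by limma with GDF11. There 3 had an unadjusted p under 0.05, beside 2690 of all 9134 tested genes. With TGFB1, 3 fell (medians −0.0045 for GDF11 and −0.06 for TGFB1). These were the cytokine receptor inhibitors Socs2 (−1.40, and −0.83 with the brightness term) and Socs3 (−0.87, and −0.39 with the term, limma adjusted p = 0.0977), and the EGF receptor inhibitor Errfi1 (−0.79, and −0.21 with the term). With the term, Socs2 alone of the 3 passed, and Rasa1 rose with both ligands (0.46 and 0.44).

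Of 29 genes of the RAS to MAP kinase cascade, 3 rose and 1 fell with GDF11, and 5 rose and 6 fell with TGFB1 (medians −0.13 and −0.14, or 0.07 and 0.09 with the brightness term, which left 4 and 1 calls, and 4 and 2). Map2k1, the kinase that activates ERK, rose by 1.61 ± 0.28 with TGFB1 (limma adjusted p = 0.00104) and by 1.01 with the term. Rps6ka3, which encodes an ERK-activated kinase and was above background on 2 of the 4 serum-free arrays, rose by 0.68 with each ligand. Mapkapk2, the p38-activated kinase that phosphorylates ZFP36, also rose with GDF11 (0.51), and the gene that fell was Rps6ka1 (−0.39). With TGFB1 Mapkapk2 and Rps6ka1 changed in the same directions, by 0.60 and −0.49. Between the ligands none of the 29 passed by limma, and 3 had an unadjusted p under 0.05, 2 of them higher with TGFB1.

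Of 21 ERK-responsive genes, 6 rose with GDF11 and 7 with TGFB1, and none fell by limma (1 and 2 were lower at an unadjusted p under 0.05). The medians were 0.35 and 0.25, or 0.15 and 0.26 with the brightness term, where 8 and 6 rose and 1 fell each time. Fos, an AP-1 subunit, rose by 1.40 ± 0.13 with GDF11 (limma adjusted p = 1.87e-05) and 1.96 ± 0.13 with TGFB1 (adjusted p = 2.67e-07). Egr2, a zinc finger factor above background on no serum-free array, which likewise entered the test through the ligand arrays, was at least 2.59-fold and at least 2.40-fold higher. Ereg, which rose with both ligands, was above background on 1 of the 4 serum-free arrays. Dusp1, Dusp6 and Zfp36 were lower on the same TGFB1 arrays on which Fos and Egr2 were higher. Kinase activity was not measured, and whether ERK had a part in these changes was not tested.

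Of 27 tested genes of deadenylation, decapping and other RNA decay, none passed by limma with GDF11 (median −0.02). There 4 had an unadjusted p under 0.05, 2 in each direction, beside 2690 of all 9134 tested genes. With TGFB1, 2 rose and 4 fell (median −0.06), and 1 of the 6 kept its call with the brightness term. That gene was Tob1, which links CCR4-NOT to its targets and which fell by 1.30 with TGFB1 and was lower than with GDF11 (−0.77, limma adjusted p = 0.045, and −0.65 with the term). The others that fell were Tob2 (−0.61), Ddx6 (−0.93, with 3 other probes at −0.19, 0.10 and −0.04) and Exosc10 (−0.35), and those that rose were Upf1 (0.74, with other probes at −0.59 and 0.09) and Pan3 (0.60). Only 1 of the 4 serum-free arrays had Pan3 above background, and the size of its change is uncertain. With the term these 5 stood, in the order named, at −0.27, −0.04, −0.20, 0.18 and 0.20.

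The next list held 10 tested genes of other mRNA-binding proteins, among them proteins that bind AU-rich or stem-loop elements. Of these 1 gene rose with GDF11, and 5 rose and 1 fell with TGFB1 (medians 0.14 and 0.22). With the brightness term 1 call was left, with TGFB1. It was Tial1, a translational silencer, at 1.26 and 1.75 and, with the term, 0.60 (limma adjusted p = 0.0543) and 0.76 (adjusted p = 0.0237). Its other probe gave 0.17 and 0.32. Zc3h12a, an RNase that degrades cytokine mRNAs, rose by 0.85 with TGFB1 but did not pass with the term (0.57, adjusted p = 0.0948), and Elavl1, Khsrp and Rc3h1 (1.01, 0.48 and 0.42) and Igf2bp2 (−0.81) were within −0.28 to 0.26 with it. Rc3h1 was above background on 1 of the 4 serum-free arrays.

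Of 17 AU-rich transcripts known to be bound by ZFP36 proteins, 4 rose and 2 fell with GDF11, and 7 rose and 2 fell with TGFB1 (medians 0.35 and 0.40). Csf2 and Ptgs2, among those that rose with TGFB1, were above background on no serum-free array. They entered the test through the ligand arrays, so their calls are no independent support. With TGFB1 they were at least 1.06-fold and at least 1.22-fold higher. Lif, which rose with GDF11, was above background on 1 of the 4 serum-free arrays. Once the term was added, 4 rose and 3 fell with GDF11, and 4 rose and 2 fell with TGFB1 (medians 0.06 and 0.21). The cytokine transcript Il11 rose by 2.53 ± 0.265 with GDF11 and 4.02 ± 0.265 with TGFB1, with a difference of 1.497 ± 0.265 between them (limma adjusted p = 5.17e-05, 2.58e-07 and 0.0181). The chemokine transcript Cxcl1, which tristetraprolin is known to destabilize, was among the 2 that fell, by −1.40 and −2.11, together with E2f1 (−0.66 and −0.95). Genes of this list passed in both directions on the TGFB1 arrays, on which Zfp36 was lower. Decay of mRNAs and ZFP36 protein were not measured, and a link between these changes and Zfp36 was not tested.

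**Figure D4:**
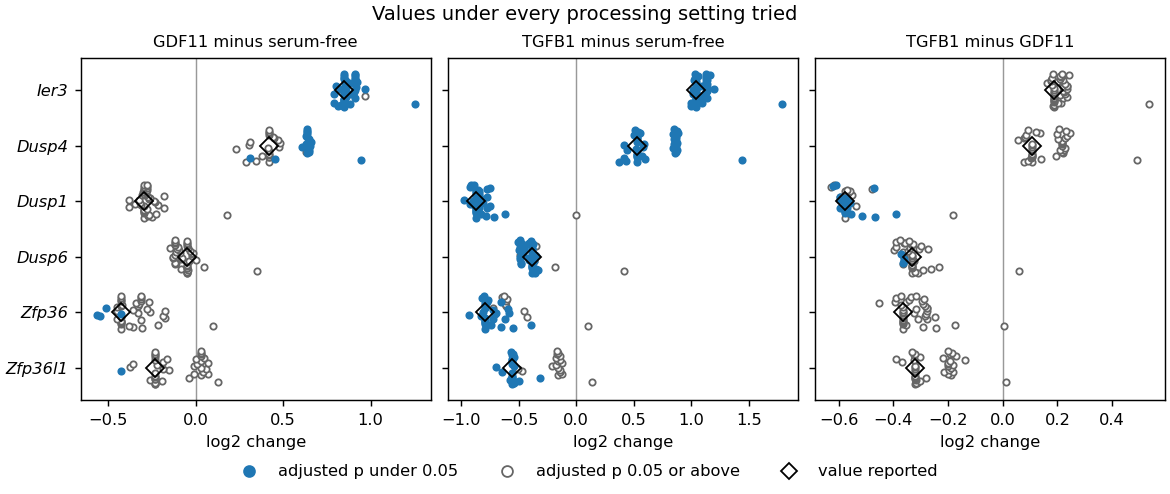
Log2 change of each tested gene under all processing settings tried, in the 3 comparisons, with filled points where the limma adjusted p is under 0.05 and a diamond for the value reported. Ier3 and Dusp4 stay to the right of 0 under every setting, and the 4 other genes cross to the right of 0 in at least 1 panel under median scaling.

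Over 40 alternative settings, Ier3 and Dusp4 were called for TGFB1 against serum-free medium in every setting that gave a value. Dusp1 was called in all but median scaling, where it stood at −0.0035. For Dusp1 between TGFB1 and GDF11, 10 of the 15 settings that kept all arrays or used a fixed subset called it, among them the authors' own processed values (−0.39, limma adjusted p = 0.0405) and cyclic loess (−0.56, adjusted p = 0.0421). When single arrays were left out, 1 of 12 fits called it (limma adjusted p 0.0473 to 0.205), and 8 of 12 did with the brightness term.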

How the data were processed

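Raw probe intensities and detection p-values of 12 arrays (3 treatments, 4 replicates each) were used as deposited, per the file headers. The authors' processed log2 values, made with lumi per the submitters' processing notes, served as an alternative, since the sources used here state neither their normalization nor the log base; they rank each array's probes as the raw values do. The deposited table also gives bead numbers and bead standard errors per array, which entered no test, and every per-sample column was matched to a sample (0 left over). Labels do not give separate cultures or passages, so p-values measure the spread between these replicates.

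Intensities were background-corrected and quantile-normalized on the log2 scale (neqc, offset 16). A probe was kept if 4 or more arrays gave it a detection p below 0.05 (12680 probes, 9134 genes, of which 2490 had several probes and 18 no name here). Of the 18138 symbols, 14307 matched the RefSeq table (GRCm38.p6) and 2906 matched by a synonym. limma 3.58.1 (R 4.3.3) fitted all 12 arrays with Benjamini-Hochberg adjustment over all genes. The fit was tried on simulated arrays with log2 changes of 1 and 2, and called 80% to 83% of the genes changed by 1. Those arrays held no brightness difference and no smaller changes, so the simulation does not check the fit for these. Python 3.11.15 with pandas 2.3.3 and matplotlib 3.10.9 did the rest. The number of arrays limits precision.

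The genes and gene lists were chosen with earlier results of these data known. All 10 genes were named by rule, as were, per comparison and list, up to 2 called genes with the smallest adjusted p and the 3 genes most like the leading gene of the set. Other list genes named in the text were chosen after their values were seen. A called gene of the lists is not reported here by name. Same-numbered arrays correlated at −0.33 to 0.61 in their deviations from group means, so the numbers were not taken as pairs. Alternatives covered background correction, offset, normalization, the detection filter, the choice of probe, the groups in the fit, brightness, array weights, a replicate block and leaving out each array.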

Additional observations from a re-analysis of the deposited data

Results flagged for a closer look

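Dusp4 on GDF11 array 1 had a normalized log2 level of 7.87, away from the other 3 GDF11 arrays at 7.40 to 7.47. The gap to the nearest of them was 0.842 of the whole range of the group, above Dixon's 95% critical value for 4 samples. It was the only such array among 18 groups of 4 (6 genes in 3 treatments), and at this level chance alone marks about 5% of groups. GDF11 array 1 is the dim array of its group, and Dusp4 was lower on bright arrays by −0.44 ± 0.09 with the treatments in the model; the part of brightness in this value was not tested further. Without this array the GDF11 change of Dusp4 was 0.31 (limma adjusted p = 0.0858), against 0.42 (adjusted p = 0.0851) with it.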

How the results depend on the processing

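Of 708 recomputed changes of the 6 tested genes (18 results, 40 settings), 605 kept their direction and their side of the threshold, 46 passed only in the alternative, 32 no longer passed and 25 changed sign. Ier3 with GDF11 passed in 15 of 16 settings that did not leave out single arrays, the exception being dim arrays alone. The cause of the shifts listed here was not tested, except that fits on fewer arrays have fewer arrays by construction.

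Median scaling changed the sign of Dusp1 for GDF11 against serum-free medium (0.18), and of Dusp6, Zfp36 and Zfp36l1 in all 3 comparisons. Dusp6 stood at 0.35 for GDF11 and 0.41 for TGFB1 against serum-free medium and 0.059 between the ligands, Zfp36 at 0.10, 0.10 and 0.0031, and Zfp36l1 at 0.13, 0.14 and 0.011. The median of all genes moved to 0.34, 0.60 and 0.27 in these comparisons, and the share of higher genes among those called to 89.9%, 96.7% and 95.3%, from 48.2%, 45.7% and 52.6%. The authors' processed values gave 72.5% between the ligands. Averaging a gene's probes put Dusp6 with GDF11 at 0.049. Zfp36l1 with GDF11 was 0.030 with the brightness term and 0.071 on bright arrays alone.

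In GDF11 against serum-free medium, limma called 907 genes, against 268 with median scaling, 352 with those 2 groups only, 563 on bright arrays, 6 on dim arrays and 4485 with array weights. Of the 6 genes, 1 was called, against 2 with median scaling, cyclic loess, the authors' values, the brightness term or bright arrays, 3 with array weights and 0 on dim arrays. In TGFB1 against serum-free medium, 3140 genes were called, against 1448 with the term, 1558 on bright arrays and 4882 with array weights, and of the 6 genes 2 with median scaling. Between the ligands, 76 genes were called, against 43 with median scaling, 129 with loess, 229 with the term, 536 on bright arrays and 674 with array weights. None of the 6 was called there, against 1 with no background correction, an offset of 50, loess, the authors' values, detection on at least 1 or on all 12 arrays, averaged probes or the term, and 2 on bright arrays or with array weights.

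Leaving out 1 array at a time called 444 to 3367 genes and 1 to 2 of the 6 for GDF11, 2046 to 4453 genes and 5 to 6 of the 6 for TGFB1, and 19 to 109 genes and 0 to 1 of the 6 between the ligands. With the brightness term the ranges were 313 to 1065 and 2 to 3, 975 to 1580 and 3 to 5, and 110 to 313 and 0 to 2. Zfp36l1 with GDF11 ran from −0.38 to −0.15, and from −0.011 to 0.071 with the term. Gene counts for GDF11 rose to 2833 without serum-free array 3 and 3367 without GDF11 array 1, and fell to 496 to 517 without serum-free array 2 or 4 or GDF11 array 2 or 3, 571 without serum-free array 1 and 444 without GDF11 array 4. For TGFB1 they fell to 2046 and 2061 without serum-free array 1 or 2, and between the ligands to 19 to 31 without GDF11 array 2 or 3 or any TGFB1 array.

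The replicate number as a replicate block called 868, 3299 and 57 genes in the 3 comparisons and 1, 6 and 0 of the 6 genes, and changed no call among them. Of the 12 arrays, 4 correlated best with an array of their own number. Replicate block and brightness term together called 1048 genes and 3 of the 6 for TGFB1, 201 genes between the ligands and 2 of the 6 for GDF11, with Zfp36l1 for GDF11 at 0.040. For TGFB1, Zfp36 (−0.43, limma adjusted p = 0.241) and Dusp6 (−0.37, adjusted p = 0.103) then lost the calls they had with the term alone. Dim signal limits Spry2, Spry4 and Zfp36l2, and a single bright serum-free array limits both comparisons with serum-free medium within bright arrays.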
